A study of Mus musculus with 18 samples.

Results

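The 8 genes described here encode the CC chemokine receptors *Ccr1*, *Ccr2*, *Ccr3*, *Ccr4*, *Ccr6*, *Ccr8*, *Ccr9* and *Ccr10*, taken by symbol from the 50600 genes of the count table, with *Ccr7* not included. They were measured by RNA-seq in FACS-purified Foxp3+ regulatory T cells (Tregs) of 18 individual C57BL/6 mice. The study asked which gene programs of Tregs depend on CD25, the α chain of the IL-2 receptor encoded by *Il2ra*, in the thymus and in the periphery. The thymic groups were 5 Foxp3/RFP reporter mice (WT) and 5 CD25flox/Foxp3-YFP/Cre mice (CD25 KO), all at 3 to 4 weeks of age. The CD25 KO mice of the thymic comparison had been "cured", that is, given WT splenocytes intravenously as neonates to prevent autoimmunity, whereas nothing in the sources used here says that their controls were. The splenic groups were 4 CD25 WT reporter mice and 4 CD25flox/Foxp3eGFP-Cre-ERT2/R26Y mice (CD25 KO), in which tamoxifen was given to mutant and control mice at 7 to 10 weeks of age and Tregs were taken 10 to 14 days later. In both models Cre was expressed from the *Foxp3* locus and excised exon 4 of *Il2ra*, so the deletion was limited to cells with an active *Foxp3* gene, and the R26Y allele marks such cells with YFP. A further difference between the thymic groups was the *Foxp3* reporter allele they carried. Tissue, mouse model, age and the date in the sample headers changed together, so that their parts in a difference between tissues cannot be told apart.

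Chemokine receptors are G protein-coupled receptors that steer cells toward their chemokine ligands through Gαi, phospholipase Cβ, PI3Kγ and the Rac activator DOCK2, and G protein-coupled receptor kinases, β-arrestins and RGS proteins turn the signal off. CCR9 binds CCL25 of thymic and intestinal epithelium and is known from developing thymocytes and gut-homing T cells. CCR4 (ligands CCL17 and CCL22), CCR8 (CCL1 and, in the mouse, CCL8) and CCR10 (CCL27 and CCL28) are known from T cells of skin and other barrier tissues, and CCR4 and CCR8 from Tregs in particular. CCR6, the receptor of CCL20, is known from Tregs, Th17 cells and B cells. CCR1, CCR2 and CCR3 are inflammatory receptors that guide monocytes, activated T cells and, for CCR3, eosinophils.

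In GRCm38, 6 of the genes lie on chromosome 9, among them *Ccr9*, *Ccr1*, *Ccr3* and *Ccr2*, whose annotated spans fall between positions 123678439 and 124113557. *Ccr4* lies at chr9:114490316-114504916 on the minus strand and *Ccr8* at chr9:120092114-120094906 on the plus strand. *Ccr6* lies at chr17:8236043-8257141 on the plus strand and *Ccr10* at chr11:101172997-101175443 on the minus strand. *Ccr10* is within the span of *Cntnap1*, a gene of the opposite strand with which it shares no exonic base, and 18.8% of the exonic bases of *Ccr9* are shared with the transcript AC165425.1 of the opposite strand. A further 2.62% of the exonic bases of *Ccr9* are shared with Gm17200 of the same strand, which counting by strand would not separate. With *Slc6a20a* of the opposite strand 0.214% are shared. Whether reads were counted by strand is not stated, so reads of AC165425.1 in the shared bases cannot be told apart from those of *Ccr9*. For *Ccr10* this holds only for reads of unspliced *Cntnap1* RNA, since the genes share no exonic base.

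RefSeq promoter windows, from 250 bases before to 50 bases after the transcription start, were found for 7 of the 8 genes, with 2 starts for *Ccr6*. They were searched on both strands for 5 motifs of transcription factors active in T cells. The STAT motif TTCNNNGAA was in 8.3% of the 32851 promoter windows of the table, and among the receptors in the window at the upstream start of *Ccr6* alone, where it occurred 2 times, 157 and 120 bases before the start. The AP-1 motif TGAGTCA was in 5.2% of windows and was found in *Ccr4*, 143 bases before the start, and in *Ccr3*, 144 bases before it. The GATA motif AGATAA, in 11.2% of windows, was found in *Ccr2*, *Ccr3*, *Ccr8* and the second window of *Ccr6*. The RUNX motif TGTGGT, in 16.8%, was found in *Ccr1* and in the first window of *Ccr6*, and the forkhead motif TGTTTAC, in 3.65%, in none of the receptors. No motif overlapped another in the 3 stretches printed here, which hold the STAT or AP-1 matches and end at the last base before the start. They are at chr17:8235793-8236042 (plus strand) for *Ccr6*, chr9:114496545-114496794 (minus strand) for *Ccr4* and chr9:124021721-124021970 (plus strand) for *Ccr3*, build GRCm38.p6, written 5′ to 3′ on the strand of the gene with those matches in capitals.
Ccr6: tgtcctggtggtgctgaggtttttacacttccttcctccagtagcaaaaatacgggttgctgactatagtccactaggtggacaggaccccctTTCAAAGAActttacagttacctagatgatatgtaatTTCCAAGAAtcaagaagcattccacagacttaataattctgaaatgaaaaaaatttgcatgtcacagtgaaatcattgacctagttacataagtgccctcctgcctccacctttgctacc
Ccr4: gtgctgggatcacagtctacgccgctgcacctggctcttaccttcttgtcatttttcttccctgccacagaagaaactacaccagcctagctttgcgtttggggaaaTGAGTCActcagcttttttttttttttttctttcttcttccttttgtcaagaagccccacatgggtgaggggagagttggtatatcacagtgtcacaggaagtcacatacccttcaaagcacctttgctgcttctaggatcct
Ccr3: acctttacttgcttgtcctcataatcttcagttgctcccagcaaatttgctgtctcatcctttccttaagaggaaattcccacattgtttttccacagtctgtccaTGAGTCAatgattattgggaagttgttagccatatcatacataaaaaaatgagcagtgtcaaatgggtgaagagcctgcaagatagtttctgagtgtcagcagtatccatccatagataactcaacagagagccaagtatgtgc
A match is a description of the letters only, and binding of a factor was not measured.

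The targeted gene was lower in each CD25 KO group. *Il2ra* measured 668, 647, 526, 683 and 546 CPM (counts scaled to library size) in the thymic WT mice and 105, 288, 95.2, 236 and 97.3 CPM in thymic CD25 KO mice 1 to 5. It measured 481 to 534 CPM in the splenic WT mice and 166 to 208 CPM in the splenic CD25 KO mice. These counts cover the whole gene and so include transcripts without exon 4. The paper reports *Il2ra* transcripts as reduced but present in CD25 KO Tregs. It takes their lack of exon 4, shown for peripheral Tregs, to mean that functional CD25 was absent. By flow cytometry the paper detected no CD25 on Tregs of either model, yet it describes CD25+ Foxp3+ thymocytes in younger mice of the thymic model. Thymic CD25 KO mice 2 and 4 had the most *Il2ra* RNA of their group, and the summed level of 12 genes of effector Tregs was 1031.9 and 833 CPM in them but 398 to 497 CPM in the other 3. The proliferation gene *Mki67* carried most of this gap, with 521 and 350 CPM in mice 2 and 4 and 70.1 to 105 CPM in the others, and the other 11 genes summed to 511 and 483 CPM against 328 to 394 CPM. The count of receptors called, *Ccr8* and the effector genes are therefore also given without these mice. Treg genes (*Cd3e*, *Cd4*, *Foxp3*, *Ikzf2*, *Ctla4* and *Il2rb*) summed to 3118.6 CPM or more in every sample. Total counts were 17239774 to 23993674 per thymic and 25258341 to 32639570 per splenic sample.

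**Figure D1:**
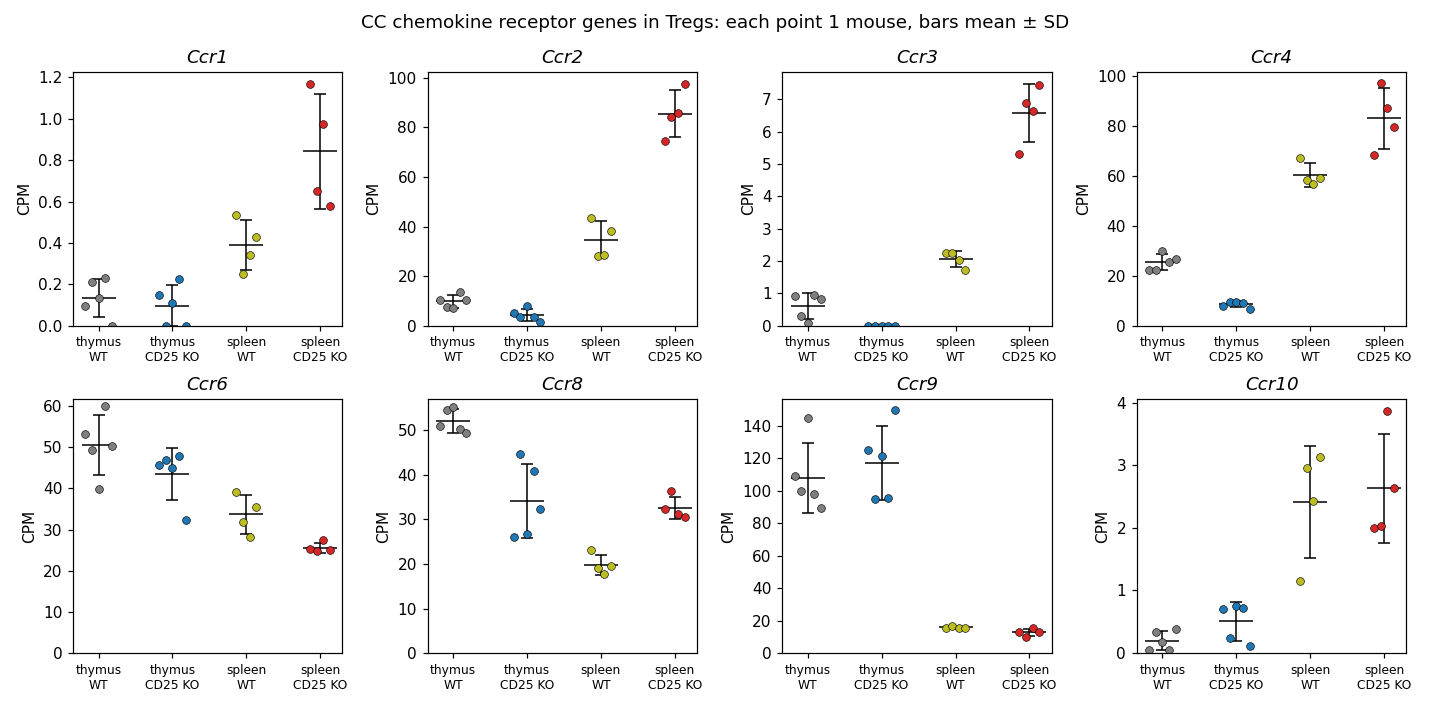
CPM of each receptor gene (y axes, linear, each panel on its own scale) in every mouse of the 4 groups (x axis), each point 1 mouse and bars the mean ± SD. *Ccr9* lay between 89.3 and 149.5 CPM in the thymic mice and between 9.79 and 16.8 CPM in the splenic mice, while *Ccr2*, *Ccr3* and *Ccr4* had their highest levels in splenic CD25 KO mice.

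The first question is which receptors the Tregs of each tissue transcribed most. Levels of different genes were compared per kilobase of length, as CPM per kilobase of annotated exons. In thymic WT Tregs, *Ccr8* was highest with 44.3 CPM per kilobase ± 2.25 (SD, n = 5), followed by *Ccr6* with 21.8 ± 3.14, *Ccr9* with 10.6 ± 2.1, *Ccr4* with 8.23 ± 1.04 and *Ccr2* with 1.46 ± 0.386. Of these neighbours in the order, only *Ccr9* and *Ccr4* had mice whose levels overlapped. *Ccr3*, *Ccr10* and *Ccr1* were at or below 0.294 CPM per kilobase in every thymic WT mouse and overlapped one another.

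In splenic WT Tregs, *Ccr4* with 19.5 CPM per kilobase ± 1.5 (SD, n = 4), *Ccr8* with 16.9 ± 1.95 and *Ccr6* with 14.5 ± 2.03 led the order, each overlapping the next. *Ccr2* followed with 5.13 ± 1.1, *Ccr9* with 1.54 ± 0.0717 and *Ccr10* with 1.4 ± 0.52, the last pair overlapping. *Ccr3* with 0.63 ± 0.0757 and *Ccr1* with 0.137 ± 0.0426 closed it. In splenic CD25 KO Tregs, *Ccr8* (27.8 ± 2.16) and *Ccr4* (26.9 ± 3.94) overlapped at the top, and *Ccr2* (12.7 ± 1.39) stood beside *Ccr6* (11 ± 0.522). In thymic CD25 KO Tregs, *Ccr8* (29.0 ± 7.11), *Ccr6* (18.8 ± 2.73) and *Ccr9* (11.4 ± 2.23) led, and *Ccr4* had fallen to 2.78 ± 0.37.

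The order depended on the length used. The annotated exons of *Ccr9* span 10260 bases and those of *Ccr2* 6760 bases, against coding lengths of 1107 and 1119 bases, whereas the exons of *Ccr8* span 1175 bases. Per kilobase of coding length, *Ccr9* was first in thymic WT (97.8 CPM per kilobase) and thymic CD25 KO Tregs (106 CPM per kilobase), and *Ccr4* was first in both splenic groups, though in splenic CD25 KO Tregs it overlapped *Ccr2* (77 and 76.5 CPM per kilobase). Of the 32 ranks in the 4 groups, 19 were the same on both scales.

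**Figure D2:**
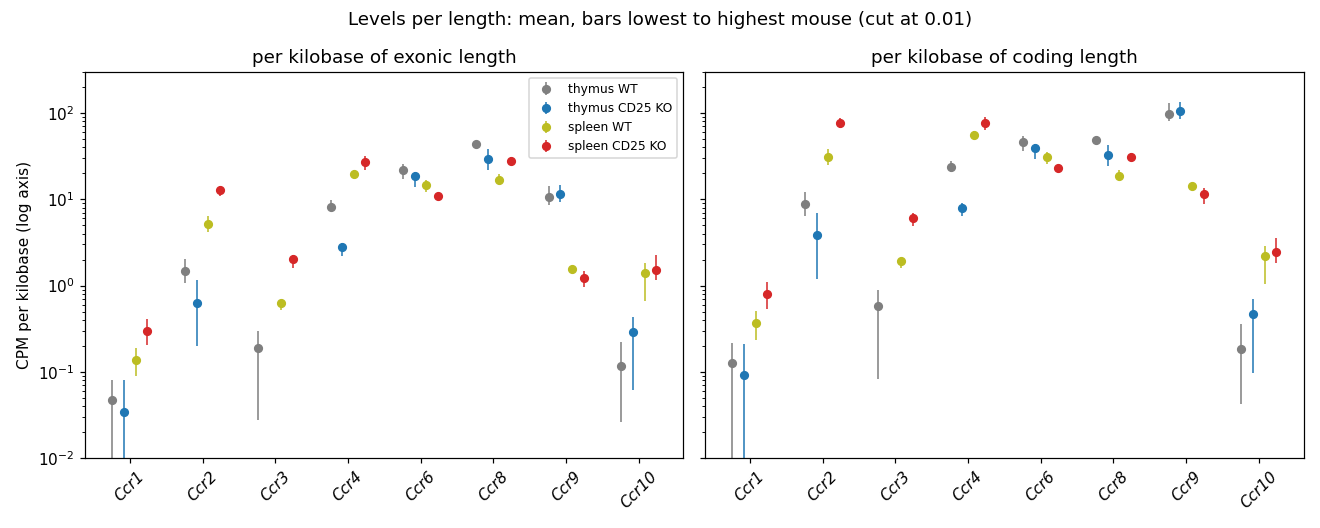
Level of each receptor gene as CPM per kilobase (log axis) of exonic length (left panel) and of coding length (right panel), points the group means and bars the lowest to the highest mouse, cut at 0.01. *Ccr9* in the thymus stands at 10.6 (WT) and 11.4 (CD25 KO) on the left and at 97.8 and 106 on the right, and *Ccr3* in thymic CD25 KO Tregs is not drawn because it had no counts.

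WT Tregs of the spleen and the thymus were then compared for each receptor in 1 fit of all 18 samples. Of the 8 genes, 4 were higher and 3 were lower in the spleen at FDR < 0.01 (quasi-likelihood test of edgeR, adjusted over all genes), against a background of 40.4% of the 18686 genes tested (21% higher and 19.5% lower). In each of the 8 the mice of the WT groups did not overlap, as for 45.8% of genes. Within the thymus *Ccr1*, *Ccr3* and *Ccr10* were under the count filter, and they entered this fit through their splenic counts. *Ccr3* and *Ccr10* are among the 4 called higher, and the background was not matched for genes that enter in this way.

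*Ccr9* was 6.77-fold lower in splenic than in thymic WT Tregs (log2 fold change -2.76, SE 0.157, edgeR adjusted p = 1.2e-11), *Ccr8* was 2.59-fold lower (log2 -1.37, SE 0.126, adjusted p = 1.76e-08) and *Ccr6* was 1.48-fold lower (log2 -0.56, SE 0.118, adjusted p = 0.00046). *Ccr10* was 11.7-fold higher in the spleen, though from 1 to 9 counts per thymic library (log2 3.54, SE 0.479, adjusted p = 3.5e-06). *Ccr2* was 3.56-fold higher (log2 1.83, SE 0.251, adjusted p = 4.08e-06), *Ccr3* 3.4-fold higher (log2 1.76, SE 0.348, adjusted p = 0.000458) and *Ccr4* 2.41-fold higher (log2 1.27, SE 0.105, adjusted p = 3.62e-09). *Ccr1*, with 14 counts or fewer in every WT library, did not pass the test (log2 1.51, SE 0.571, adjusted p = 0.0316). Marker genes of immature thymocytes (*Cd8a*, *Cd8b1*, *Rag1*, *Rag2*, *Dntt* and *Ptcra*) moved with this difference: they summed to 40.2 to 172 CPM in thymic WT and 8.24 to 10.3 CPM in splenic WT Tregs, and their part in the level of *Ccr9*, which thymocytes also express, was not tested. Other markers moved too. Of 6 dendritic cell markers, 4 were lower and 2 higher in the spleen, among them *Siglech* of plasmacytoid dendritic cells, which also express *Ccr9*, with 3.51 to 21.9 CPM in thymic and 0.0381 to 0.156 CPM in splenic WT Tregs. Of 3 B cell markers tested, 2 were higher and 1 lower. Their part in the receptor levels was not tested either.

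In the thymus, CD25 KO Tregs had less *Ccr4* than WT Tregs and had no counts of *Ccr3*, while *Ccr8* lay below the WT range in every mouse without passing the test. Of the 8 genes, 5 passed the filter on low counts, and 1 of them (*Ccr4*) was called at FDR < 0.01, in the direction of lower expression. The background was 6.16% of the 16986 genes tested, with 2.99% lower. In bulk samples, fewer cells that express a gene and less RNA per cell cannot be told apart.

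*Ccr4*, the receptor of CCL17 and CCL22, measured 22.4, 22.4, 30.0, 25.6 and 27.0 CPM in the thymic WT mice and 8.07, 9.73, 9.39, 8.94 and 6.88 CPM in the CD25 KO mice. All CD25 KO mice were below all WT mice, and mice 2 and 4 were not set apart from the other 3. The level was 2.94-fold lower (log2 fold change -1.56, SE 0.116, edgeR adjusted p = 1.28e-05), and only 10 of the 16986 genes tested had a lower p in this comparison.

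*Ccr8*, the CCL1 receptor, measured 51.0, 54.7, 55.1, 50.2 and 49.4 CPM in thymic WT and 26, 44.7, 26.8, 40.9 and 32.3 CPM in CD25 KO mice 1 to 5. The groups did not overlap, and the CD25 KO mice with the highest values were the same mice 2 and 4 that had the most *Il2ra* RNA of their group, counted over the whole gene. The level was 1.52-fold lower and missed the threshold by a narrow margin (log2 -0.60, SE 0.133, edgeR adjusted p = 0.01001). Without mouse 2 it passed (log2 -0.71, edgeR adjusted p = 0.0041), as it did without mouse 4 (log2 -0.68, adjusted p = 0.00717). Without both, an alternative chosen after seeing the data, the change was -0.87 (SE 0.0832, edgeR adjusted p = 6.66e-05). Since these mice had the highest *Ccr8* of their group, leaving them out was bound to lower the group mean. The passing values are therefore no further support for a change.

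**Figure D3:**
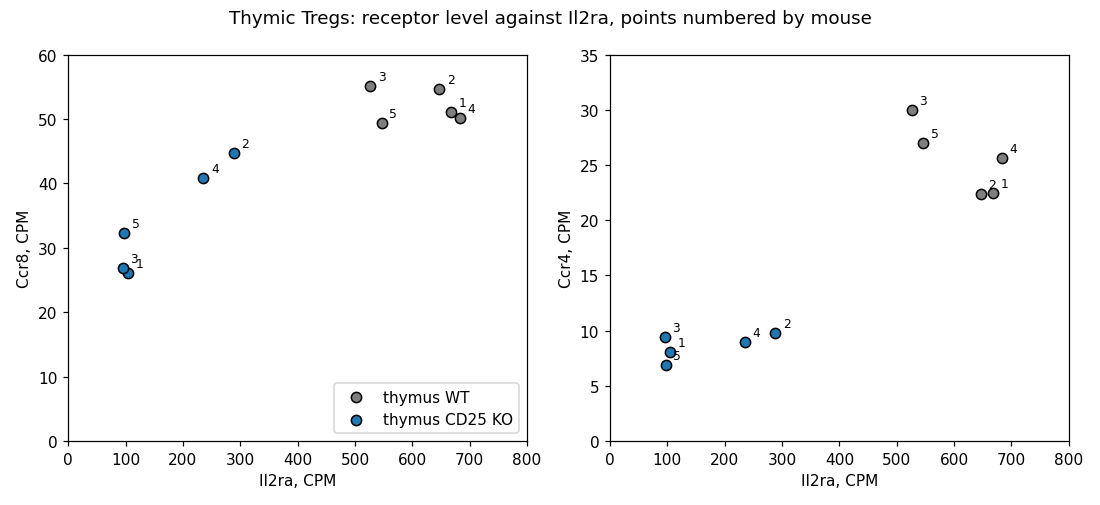
CPM of *Ccr8* (left panel) and *Ccr4* (right panel) on the y axis against CPM of *Il2ra* on the x axis in the 10 thymic mice, each point 1 mouse with its number. CD25 KO mice 2 and 4 have 288 and 236 CPM of *Il2ra* and the highest *Ccr8* of their group (44.7 and 40.9 CPM), while their *Ccr4* (9.73 and 8.94 CPM) lies close to that of the other 3 (6.88 to 9.39 CPM).

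The inflammatory receptors were low in thymic Tregs. *Ccr2* measured 10.3, 7.72, 7.21, 13.7 and 10.5 CPM in WT and 5.18, 3.46, 7.82, 3.54 and 1.33 CPM in CD25 KO mice. One CD25 KO mouse, number 3, lay within the WT range. The estimate was 2.3-fold lower and did not pass the test (log2 -1.21, SE 0.343, 95% interval -1.95 to -0.46, edgeR adjusted p = 0.0264).

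*Ccr3*, known as the eotaxin receptor of eosinophils, had 19, 7, 2, 21 and 19 counts in the thymic WT mice and 0 counts in each of the 5 CD25 KO mice. With the floor set at 3 counts per library, the WT mean of 0.617 CPM was 4.12-fold above the mean CD25 KO floor of 0.15 CPM. That ratio leaves out the spread of the WT mice (0.0902 to 0.962 CPM), of which mouse 3, with 2 counts, was itself under the floor. The gene was under the count filter and so was not part of the main test, and without a filter the fit gave an adjusted p of 0.00254 (edgeR). *Ccr1* had 5 counts or fewer in every thymic library, and a difference was not detectable at this depth.

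*Ccr6* and *Ccr9* were not called in the thymus. *Ccr6* measured 53.2, 49.5, 39.8, 59.9 and 50.3 CPM in WT and 45.7, 46.9, 44.9, 47.8 and 32.4 CPM in CD25 KO mice. Its log2 fold change of -0.21 had a 95% interval of -0.47 to 0.05 (edgeR adjusted p = 0.227). *Ccr9* measured 109, 100.1, 145, 98.1 and 89.3 CPM in WT and 125.4, 95.1, 121, 95.5 and 149.5 CPM in CD25 KO mice. The groups overlapped in both genes, and for *Ccr9* the log2 fold change was 0.12 with a 95% interval of -0.19 to 0.44 (edgeR adjusted p = 0.569). *Ccr10* had 1 to 9 counts in the WT and 2 to 16 counts in the CD25 KO libraries, was under the filter, and without a filter had a log2 fold change of 1.30 (SE 0.579, edgeR adjusted p = 0.173). The 2 genes tested with mice that did not overlap between the thymic groups, *Ccr4* and *Ccr8*, compare with a background of 15.8% of genes tested.

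In the spleen, CD25 KO Tregs had more *Ccr2*, *Ccr3*, *Ccr4* and *Ccr8* and less *Ccr6* than WT Tregs. All 8 genes passed the filter; 4 were called higher and 1 lower, against a background of 9.45% of the 17463 genes tested, with 5.9% higher and 3.55% lower. In 7 of the 8 the mice of the groups did not overlap, as for 20.2% of genes.

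*Ccr2*, the CCL2 receptor, measured 43.5, 28.3, 28.7 and 38.4 CPM in splenic WT and 74.6, 84.2, 85.8 and 97.6 CPM in CD25 KO mice. Every CD25 KO mouse was well above every WT mouse, and the level was 2.44-fold higher (log2 1.29, SE 0.116, edgeR adjusted p = 2.33e-06). *Ccr3* measured 2.25, 2.24, 2.04 and 1.72 CPM in WT and 5.31, 6.9, 6.64 and 7.43 CPM in CD25 KO mice. The groups were again far apart, and of the 8 receptors *Ccr3* had the largest estimate, 3.15-fold higher (log2 1.66, SE 0.152, adjusted p = 2.76e-06). *Ccr1*, the other inflammatory receptor, measured 0.534, 0.252, 0.34 and 0.43 CPM in WT and 1.17, 0.65, 0.975 and 0.577 CPM in CD25 KO mice. The values did not overlap, but came from 7 to 31 counts per library, and the difference did not pass the test (log2 1.08, SE 0.335, 95% interval 0.37 to 1.80, edgeR adjusted p = 0.0351).

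*Ccr1*, *Ccr2* and *Ccr3* are also genes of myeloid cells, so markers of those cells were measured beside them. Of 9 monocyte and macrophage markers, 5 were below 1 CPM in every splenic mouse, and the list summed to 16.9 to 24.3 CPM in splenic WT and 22.6 to 29.1 CPM in splenic CD25 KO Tregs. One of the 5 tested, *Lyz2* (lysozyme), was 2.04-fold higher in CD25 KO Tregs (log2 1.03, SE 0.189, edgeR adjusted p = 0.00132), whereas *Csf1r*, the M-CSF receptor, was not called (log2 -0.24, SE 0.178, adjusted p = 0.41). The 8 granulocyte and mast cell markers summed to 1.02 to 1.53 CPM in WT and 0.686 to 1.09 CPM in CD25 KO mice, with *Siglecf*, *Mcpt8* and *Fcer1a* at 0 in all 8 splenic samples. The part of *Lyz2*-expressing cells in the levels of *Ccr1* and *Ccr2* was not tested.

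Of the receptors known from T cells of barrier tissues, *Ccr8* and *Ccr4* rose in the spleen. *Ccr8* measured 23.0, 19, 17.7 and 19.5 CPM in splenic WT and 32.2, 36.3, 31.3 and 30.6 CPM in CD25 KO mice. The groups did not overlap, and the level was 1.63-fold higher (log2 0.70, SE 0.0856, edgeR adjusted p = 3.78e-05). *Ccr4* measured 67.2, 58.4, 56.9 and 59.3 CPM in WT and 68.3, 97.2, 87.1 and 79.8 CPM in CD25 KO mice. The lowest CD25 KO mouse and the highest WT mouse nearly met, and the level was 1.36-fold higher (log2 0.44, SE 0.0877, edgeR adjusted p = 0.00224). This call was lost without WT mouse 3 (adjusted p = 0.0112) or WT mouse 4 (adjusted p = 0.0101), as well as in 1 fit of all 18 samples (adjusted p = 0.012).

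*Ccr6* went the other way. It measured 39.2, 31.7, 28.3 and 35.5 CPM in splenic WT and 25.3, 24.8, 27.4 and 25.0 CPM in CD25 KO mice. The highest CD25 KO mouse was just below the lowest WT mouse, and the level was 1.33-fold lower (log2 -0.41, SE 0.0885, edgeR adjusted p = 0.00428). The call was lost without WT mouse 1 (adjusted p = 0.0123), WT mouse 4 (0.018), CD25 KO mouse 2 (0.0128) or CD25 KO mouse 4 (0.0147), and in 1 fit of all 18 samples (0.0423), each an edgeR adjusted p.

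*Ccr9* measured 15.3, 16.8, 15.7 and 15.2 CPM in splenic WT and 13, 9.79, 15.2 and 13.1 CPM in CD25 KO mice. The groups did not overlap at the precision of the counts, with the lowest WT and the highest CD25 KO mouse at almost the same level, and the gene was not called (log2 -0.32, SE 0.112, 95% interval -0.56 to -0.08, edgeR adjusted p = 0.0637). *Ccr10* measured 1.14, 2.96, 2.42 and 3.13 CPM in WT and 2.0, 2.02, 3.86 and 2.63 CPM in CD25 KO mice. It was the only receptor of the 8 whose splenic groups overlapped (log2 0.11, SE 0.277, 95% interval -0.48 to 0.70, edgeR adjusted p = 0.834).

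**Figure D4:**
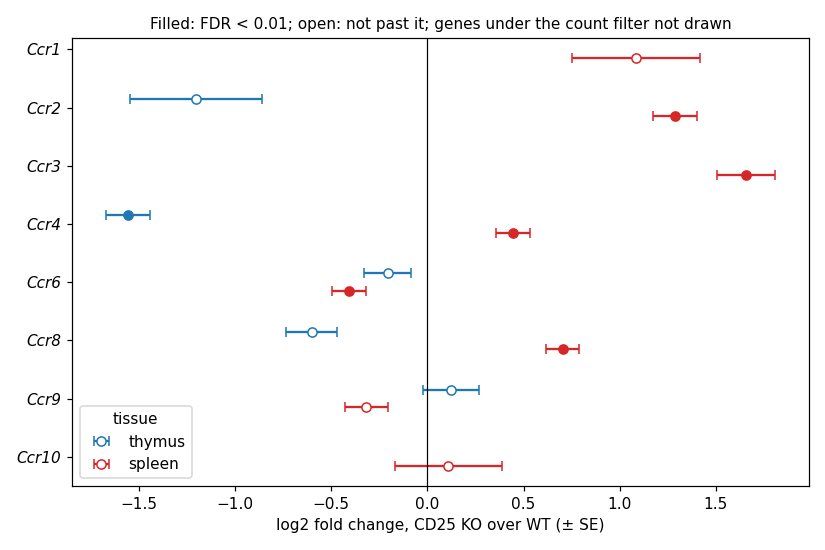
log2 fold change of CD25 KO over WT (x axis) ± SE for each receptor gene (y axis) in the thymus and the spleen, filled where FDR < 0.01. *Ccr4* stands at -1.56 (thymus) and 0.44 (spleen), and *Ccr6* is below 0 in both tissues; *Ccr1*, *Ccr3* and *Ccr10* were under the count filter in the thymus.

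Whether the change with CD25 KO differed between the tissues was tested as the splenic minus the thymic log2 fold change. The difference passed the test in 4 of the 8 genes, each time with the higher fold change in the spleen, against a background of 6.98% of the 18686 genes tested, with 4.5% in that direction. It was 2.02 for *Ccr4* (SE 0.154, edgeR adjusted p = 8.92e-08), and only 5 of the 18686 genes tested had a lower p. It was 2.51 for *Ccr2* (SE 0.371, adjusted p = 0.000156) and 1.32 for *Ccr8* (SE 0.174, adjusted p = 4.38e-05). For *Ccr3*, counted among the 4, it was called as well (adjusted p = 4.47e-05), but its size of 8.52 rests on a group without counts and is set by the prior count of the fit. *Ccr1*, *Ccr3* and *Ccr10* were under the count filter in the thymus and entered this fit through their splenic counts. The background was not matched for such genes. The difference was not called for *Ccr6* (-0.19, 95% interval -0.54 to 0.16, adjusted p = 0.461), *Ccr9* (-0.43, 95% interval -0.86 to 0.01, adjusted p = 0.163), *Ccr1* (1.51, adjusted p = 0.234) or *Ccr10* (-1.17, adjusted p = 0.244), all by edgeR. *Ccr4* was the 1 receptor called lower in the thymus and higher in the spleen, as were 80 of the 16214 genes tested in both tissues (0.493%).

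**Figure D5:**
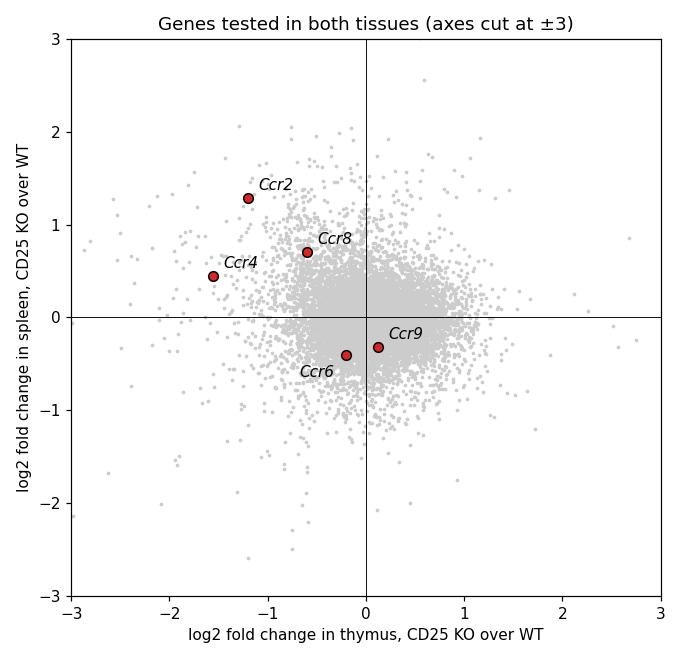
log2 fold change of CD25 KO over WT in the thymus (x axis) and the spleen (y axis), grey points all genes tested in both tissues within the axes (cut at 3 in either direction) and red points the 5 receptors tested in both. *Ccr2*, *Ccr4* and *Ccr8* lie in the upper left field, with estimates below 0 in the thymus and above 0 in the spleen, and *Ccr6* and *Ccr9* lie near the centre.

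Genes of effector Tregs were described beside the receptors. The paper reports *Tigit*, *Prdm1* and *Mki67*, among other effector genes, as higher in these same splenic CD25 KO samples. Their calls in the spleen were therefore known beforehand and are no independent support. Of 12 genes of effector Tregs, 7 were lower and none higher in thymic CD25 KO Tregs, where 2.99% of genes tested were lower. Their median log2 fold change was -0.63, against -0.00224 for all genes tested. In splenic CD25 KO Tregs 11 were higher and none lower, where 5.9% of genes tested were higher (median 0.76, against -0.00648). Without thymic CD25 KO mice 2 and 4, 8 of the 12 were lower in the thymus (median -1.03, against 0.0037), with 11.5% of 17433 genes called. Those mice had the highest sums of the effector genes in their group, so leaving them out was bound to lower the group mean. The difference between the tissues was called in 10 of the 12, each with the higher fold change in the spleen, against 4.5% of genes tested. *Tigit*, an inhibitory receptor, fell in the thymus (log2 -2.58, SE 0.232) and rose in the spleen (log2 1.28, SE 0.0994), and *Prdm1*, which encodes the transcription factor Blimp-1, likewise fell (log2 -1.05, SE 0.182) and rose (log2 1.00, SE 0.0773). *Batf*, a transcription factor of effector Tregs, and the proliferation gene *Mki67* rose in the spleen (log2 0.78, SE 0.0596, and log2 1.01, SE 0.0829). The 5 receptors tested in the thymus had a median of -0.60 and the 8 tested in the spleen a median of 0.58.

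Among 18 genes of CC chemokines, few were transcribed in Tregs, with 4 tested in the thymus and 6 in the spleen. *Ccl5*, whose product binds CCR1 and CCR3 among others, measured a mean of 6.22 CPM ± 1.24 (SD, n = 5) in thymic WT and 1.31 ± 1.01 (n = 5) in thymic CD25 KO Tregs and was the 1 chemokine called there, 4.63-fold lower (log2 -2.21, SE 0.391, edgeR adjusted p = 0.00397). In the spleen it rose from 16.1 ± 1.57 to 37.2 ± 8.49 CPM (n = 4 each; log2 1.20, SE 0.133, edgeR adjusted p = 1.71e-05). *Ccl4* (log2 2.97, SE 0.375) and *Ccl3* (log2 4.73, SE 0.665), which encode the CCR1 ligand CCL3 and its relative CCL4, rose in the spleen as well, from WT means of 0.304 and 0.0764 CPM to 2.4 and 2.18 CPM, with 5 counts or fewer of *Ccl3* in each splenic WT library. *Ccl25*, the ligand gene of CCR9, was named after its values were seen. It measured 32.8 CPM ± 3.15 in thymic WT and 23.5 ± 1.6 in splenic WT Tregs and was called in neither CD25 KO comparison.

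The atypical receptors, which bind chemokines without G protein signals, were mostly silent. Of 5 genes, *Ackr4* and *Ccrl2* were tested in each tissue, and *Ccrl2*, which presents chemerin, was called higher in splenic CD25 KO Tregs (log2 0.53, SE 0.114, edgeR adjusted p = 0.00447). *Ackr3* had no counts in any sample.

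Of 20 genes that carry the receptor signal, 1 (against the background of 6.16% of all genes) was lower and none higher in thymic CD25 KO Tregs, *Plcb3* of phospholipase Cβ (log2 -0.71, SE 0.136, edgeR adjusted p = 0.00547). In the spleen 2 of 19 were higher and 2 lower, where 9.45% of all genes were called. The gene of the list not tested there, *Rasgrp2*, had no counts in any splenic library but 59.6 to 90.6 CPM in the thymic mice. The reason for this gap was not tested. *Gng2*, a G protein γ subunit, was higher (log2 0.36, SE 0.0636, edgeR adjusted p = 0.00101), as was the integrin-activating GTPase gene *Rap1a* (log2 0.36, SE 0.0776, adjusted p = 0.00429). *Plcb2*, another phospholipase Cβ, was lower (log2 -0.38, SE 0.0651, adjusted p = 0.000808), and the fourth gene called was *Pik3r5*, a PI3Kγ subunit, which was lower (log2 -0.37, SE 0.0795, adjusted p = 0.0043). Over the list, the median change was -0.03 in thymic and 0.09 in splenic Tregs.

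Of the 14 genes that end receptor signals, 13 were tested in each tissue. In thymic CD25 KO Tregs 1 was lower and none higher, namely *Rgs1*, a GTPase-activating protein for Gαi (log2 -0.77, SE 0.143, edgeR adjusted p = 0.00497). In splenic CD25 KO Tregs 1 was higher, *Rgs16* (log2 0.67, SE 0.103, edgeR adjusted p = 0.000318), and 3 were lower, among them *Rgs10* (log2 -0.30, SE 0.06) and the β-arrestin gene *Arrb1* (log2 -0.24, SE 0.0498), so that 4 of 13 were called against the same 9.45%. The median change of the list was -0.16 in thymic and -0.11 in splenic Tregs.

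Of the 6 genes of Treg identity, 3 were lower in thymic CD25 KO Tregs and 3 higher and 1 lower in splenic CD25 KO Tregs. Of all genes tested, 2.99% were lower in the thymus, and 5.9% were higher and 3.55% lower in the spleen. *Foxp3* itself fell in both (log2 -0.74, SE 0.0973 in the thymus, and log2 -0.55, SE 0.0554 in the spleen). Other markers of cells that a sort could hold gave 1 further call among dendritic cell, B cell and immature thymocyte lists, *Pax5* of B cells, which rose in the spleen from a mean of 1.53 to 3.2 CPM (log2 1.04, SE 0.219, edgeR adjusted p = 0.00352), while the B cell list as a whole summed to 20.3 to 22 CPM in splenic WT and 19.9 to 23.9 CPM in splenic CD25 KO Tregs. In the thymus the immature thymocyte markers summed to 40.2 to 172 CPM in WT and 45.2 to 99.7 CPM in CD25 KO mice and the dendritic cell markers to 23.3 to 38.6 and 14.1 to 53.1 CPM. Thymic monocyte and macrophage markers summed to 10.2 to 30.7 CPM in WT and 7.59 to 22.5 CPM in CD25 KO mice, with none of 4 tested called and a median log2 fold change of -0.76. The mean of *Csf1r* was 3.08 (WT) and 1.65 (CD25 KO) CPM and the median of *Lyz2* 3.92 and 0.854 CPM, so that their estimates had the sign of that of *Ccr2*, which was not called there, and their part in it was not tested. Thymic granulocyte and mast cell markers summed to 2.1 to 4.73 CPM in WT and 2.37 to 7.04 CPM in CD25 KO mice, beside the absent counts of *Ccr3*. *Cpa3* of mast cells had means of 1.73 (WT) and 3.77 (CD25 KO) CPM, while the means of *S100a8*, *S100a9*, *Mcpt8* and *Prg2* were lower in CD25 KO mice, as that of *Ccr3* was, with no test of these low counts. *S100a8* of neutrophils measured 0.0429 to 1.02 CPM in WT mice and had no counts in any CD25 KO mouse, and the means of *S100a9* were 0.478 (WT) and 0.019 (CD25 KO) CPM. *Mcpt8* of basophils was at 0 in all CD25 KO mice (mean 0.234 CPM in WT, with a median of 0), *Prg2* of eosinophils had means of 0.462 and 0.234 CPM, and *Fcer1a* was at 0 in all thymic mice. The other eosinophil markers of the list, *Siglecf* and *Epx*, had counts in the thymic CD25 KO group, where *Ccr3* had none. The part of granulocytes and mast cells in the level of *Ccr3* was not tested.

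The genes most like each receptor over the 18 samples were listed by Pearson's r of log2 CPM, where the genes compared with a receptor had a mean log2 CPM of at least 1, as a description only, since the samples share tissue and genotype. *Ccr4* was most like *Runx3* (r = 0.99), *Tigit* (0.985) and *Axl* (0.983). *Ccr2* was close to *S100a6* (r = 0.989) and *Plcb4* (0.98), and *Ccr3* most like *Fgl2* (0.975), *Klrg1* (0.975) and *S100a4* (0.974). *Ccr9* was most like *Ralgps1*, *Adcy6* and *Satb1* (each r = 0.993), and its mice did not overlap between thymus and spleen. *Ccr6* was most like *Nol4l* (r = 0.966), *Vav2* (0.94) and *Ncf1* (0.937). *Ccr8* was most like *Gm47050* (r = 0.96), *Hist1h2bj* (0.942) and *Hist1h4j* (0.941), and *Ccr10* most like *Ehd3* (r = 0.938), *Psmf1* (0.934) and *Tns2* (0.932).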

How the data were processed

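RNA was sequenced from FACS-purified Foxp3+ Tregs of 18 individual mice. Per the labels and the study's methods, the authors aligned reads to GRCm38 with STAR 2.5.0b and counted them per GENCODE gene with featureCounts 1.5.0 (versions from the submitters' processing notes), and deposited raw counts without normalization. Whether counting used strand is not given in the sources used here. Of 50600 identifiers, 50376 matched a symbol in GENCODE M21, among them all 8 receptors, each to 1 row.

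Groups came from the sample labels. Analyses used R 4.3.3 and edgeR 4.0.16. CD25 KO and WT mice were compared within each tissue by the quasi-likelihood test of edgeR, after filterByExpr and TMM scaling, with Benjamini-Hochberg adjustment over all genes tested and FDR < 0.01 as the threshold. The study's methods name DESeq2, which was run as an alternative (version 1.42.0). The tissue difference of the CD25 KO effect and WT spleen against WT thymus were contrasts of 1 fit of 18 samples. Standard errors are the log2 fold change divided by the square root of F. Intervals (95%) use these SE and the t quantile at the test's degrees of freedom. CPM values in the text use TMM over 18 samples, and levels between genes were compared per kilobase of exonic or coding length.

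Total counts were 17239774 to 23993674 per thymic and 25258341 to 32639570 per splenic library. The detection floor of 3 counts was at most 0.162 CPM in the thymus and 0.127 CPM in the spleen. Reads carry no molecular identifiers, so floors cover counting error only. Promoter windows came from RefSeq (GRCm38.p6) and were searched for 5 motifs on both strands.

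The receptors and gene lists were chosen with earlier results of these data known. By rule the text names every receptor, up to 4 genes of each other list with the lowest p past the threshold, the 3 genes most correlated with each receptor whose mean was at least 1 CPM, and *Il2ra*. Further genes are marked as chosen after their values were seen. One gene that the rule covers is not reported here. Procedures were tested on simulated data. Alternatives were other normalization, filters, thresholds, DESeq2, a GC correction, a replicate block and leaving out each mouse.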

Additional observations from a re-analysis of the deposited data

Results flagged for a closer look

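In thymic CD25 KO mouse 5, *Ccr6* measured 32.4 CPM, farther from the other 4 mice of its group (44.9 to 47.8 CPM) than Dixon's 95% limit for 5 samples allows, with a gap of 0.808 of the range of the group. It was 1 of 31 groups of values of the receptors examined in this way, of which chance flags about 1 in 20.

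The change with CD25 KO differed between spleen and thymus, by the edgeR contrast over 18 samples, for *Ccr2* (difference of log2 fold changes 2.51), *Ccr3* (8.52, a size set by the prior count because the thymic CD25 KO mice had no counts), *Ccr4* (2.02) and *Ccr8* (1.32). *Ccr3* was under the count filter in the thymus and came into this contrast through its splenic counts. Mouse model, age, header date and tissue changed together in this contrast, and their parts in the differences cannot be told apart.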

How the results depend on the processing

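Of the receptors' fold changes and ranks recomputed under the alternatives, 613 kept their direction, side of the threshold or rank, 9 gained a call, 8 lost one, 2 reversed and 13 ranks moved. In the thymus the count of receptors called was 1, and 3 at FDR < 0.05, 2 with upper-quartile normalization, 2 with DESeq2, 3 without a filter, 2 with at least 10 counts in every sample, 4 in 1 fit of all samples and 2 with CD25 KO mice 2 and 4 left out, which was chosen after seeing the data. Leaving out 1 mouse at a time gave 1 to 2, the count being 2 without CD25 KO mouse 2 or 4. Under each of these *Ccr8* was the second receptor called, *Ccr2* was added at FDR < 0.05 and in 1 fit of all samples (edgeR adjusted p = 0.00293), and *Ccr3* without a filter and in 1 fit. In that 1 fit *Ccr3* passed the count filter through its splenic counts only. CD25 KO mice 2 and 4 had the highest *Ccr8* of their group, so its gain on leaving them out is no further support for a change. Without thymic CD25 KO mice 2 and 4, 11.5% of 17433 genes were called, against 6.16% of 16986 in the main thymic comparison. For the other alternatives the share of all genes called was not computed, so these counts have no background beside them. In the spleen the count of receptors called was 5, 6 at FDR < 0.05, 3 in 1 fit of all samples, and 3 to 5 when a mouse was left out, with 3 without WT mouse 4. The counts for the difference between tissues (4) and for WT spleen against WT thymus (7) stayed at those values when each mouse was left out. The direction reversed only for *Ccr10* in the spleen, to -0.13 without WT mouse 1 and -0.135 without CD25 KO mouse 3, over a range of -0.135 to 0.255. Coding in place of exonic length kept 19 of 32 ranks.

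The thymic WT and CD25 KO mice share the numbers 1 to 5, but nothing says that a number marks a pair, and the deviations of same-numbered mice from their group means correlated at -0.238 to 0.144. With the replicate block the thymic count was 1, as it was with the replicate block and the GC correction together, and 1 of 5 mice correlated best with its own number. Depth limits *Ccr1*, *Ccr3* and *Ccr10* in the thymus, which had 21 counts or fewer in every library.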
